A study of Homo sapiens with 4 samples.

Results

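The 39 interferon-stimulated genes described here are a list of symbols chosen by function. The list and its roles were chosen with earlier results of these data known. Each symbol was looked up in a table of read counts for 28814 genes. All 39 had a row, and 38 passed the filter on low counts and were tested. The list was divided by what its products do: 7 sensors of foreign RNA or DNA and the transcription factor STAT2 (8 genes), 9 genes of the ISG15 system and other regulators, 16 effectors that act on viruses, and 6 genes whose role is mixed or less settled.

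Interferons are secreted proteins that warn cells of infection. Type I interferons bind the receptor pair IFNAR1 and IFNAR2, whose attached kinases TYK2 and JAK1 phosphorylate STAT proteins, among them STAT2. Phosphorylated STAT2 joins IRF9 in a complex that binds a DNA element, the ISRE, in the promoters of interferon-stimulated genes, and many of the genes keep a low basal level without added interferon. In mice, type I interferon holds back the growth of B-cell precursors.

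The cells were of the established human line 697, from a B-cell acute lymphoblastic leukaemia. They received 1 µM MZ1, or the same volume of its solvent DMSO, for 24 h, with 2 libraries in each group. MZ1 is a chimeric degrader: its JQ1 end holds BET proteins, which help transcription at acetylated chromatin, and its other end recruits VHL, which marks them for destruction. No interferon, virus or other stimulus is named in the labels for either group, the line stands for 1 patient's leukaemia, and the labels do not say whether the libraries of a group came from separate cultures. The p-values therefore reflect how far these libraries differ, and that spread may be technical only.

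The libraries held 14544789 and 14246367 counted reads with MZ1 and 16005427 and 16488005 with DMSO. Levels are given as CPM, read counts scaled to library size with TMM factors, and changes are log2 fold changes of MZ1 over DMSO with their standard error (SE) from edgeR's quasi-likelihood test, adjusted with the Benjamini-Hochberg method over 16862 tested genes and called at an adjusted p below 0.05. Of 12 B-cell precursor markers all 12 were detected, with a summed level of 1448 and 1495 CPM with MZ1 against 4213 and 4211 CPM with DMSO. Of these markers 11 fell and RAG1 was not called, where 41.3% of all tested genes were lower. The T and NK cell markers CD3D, CD3E, CD3G, CD2 and KLRD1 had no row, and the other 4 summed to 8.56 and 7.88 CPM with MZ1 and 16.9 and 18.2 CPM with DMSO. Of these NKG7 was lower, with 3.75 and 2.96 CPM with MZ1 and 16.1 and 17.6 CPM with DMSO, CD8A was higher, with 4.10 and 3.83 CPM with MZ1 and 0.672 and 0.472 CPM with DMSO, and CD5 and GNLY were under the count filter. Of 7 monocyte markers 5 had a row, without FCN1 and CD163, and summed to 18.4 and 18.1 CPM with MZ1 and 6.66 and 5.31 CPM with DMSO. This sum joins opposite changes. CD14 was higher, with 7.57 and 6.72 CPM with MZ1 and 0.428 and 0.59 CPM with DMSO, as were LYZ, with 2.62 and 2.67 CPM with MZ1 and 0.305 and 0.059 CPM with DMSO, and ITGAM, with 7.14 and 7.73 CPM with MZ1 and 0.305 and 0 CPM with DMSO. CSF1R, which made up most of the DMSO sum, was lower, with 0.99 and 0.867 CPM with MZ1 and 5.62 and 4.66 CPM with DMSO. MS4A6A was under the count filter. CD8A, CD14, LYZ and ITGAM passed the count filter with MZ1 only, the group where they were high. Their calls therefore add no support to a rise of these marker lists. Of 5 markers of plasmacytoid dendritic cells, which make much of the interferon in blood, CLEC4C had no row, LILRA4 and GZMB had at most 3 reads in any library, and the 4 with a row summed to 109 and 98.0 CPM with MZ1 and 26.2 and 23.2 CPM with DMSO, mostly from IL3RA and IRF8, both higher with MZ1. Of 5 fibroblast markers 3 had a row, without COL1A2 and COL3A1, and summed to 33.5 and 31.1 CPM with MZ1 and 107 and 106 CPM with DMSO; PDGFRB was lower, COL1A1 was not called and DCN was under the count filter. The part of other cell types in the results was not tested.

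Most interferon-stimulated genes fell with MZ1. Of the 38 tested members 31 were lower and 7 higher, where 41.3% of all tested genes were lower, 42.8% higher and 84.2% called in either direction. Among protein-coding genes 48.8% were lower and 38.5% higher. The median log2 fold change of the 38 members was −2.06, beside 0.05 for all tested genes and −0.20 for the protein-coding ones. At least 2-fold falls made up 27 of the 31, a size of fall that 26.2% of all tested genes had, and at least 2-fold rises made up 5 of the 7, where all tested genes had 29%. The members that rose were STAT2, MX1, IFIT2, RSAD2, ISG20, IFI6 and IFI27. The MZ1 and DMSO libraries did not overlap in any of the 38 tested members, and 91.3% of all tested genes had no overlap. Both MZ1 libraries were below both DMSO libraries in 31 members (44.7% of all tested genes) and above them in 7 (46.6%). Levels are scaled shares of the counted reads, so a rise or fall is relative to the other genes and not an amount of RNA per cell. In bulk libraries, fewer cells that express a gene and less RNA per cell cannot be told apart.

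Some members passed the count filter through 1 group only. A level of about 0.655 CPM in 2 libraries was needed, and 28 members reached it in both groups, 9 with DMSO only (OAS3, USP18, IFIT1, IFIT3, CMPK2, IFITM1, IFI44, IFI44L and EPSTI1) and MX1 with MZ1 only. These 10 entered the test through the group where they were high. Their calls therefore add no support to the counts and medians above or to those by role below. OASL, a relative of the OAS enzymes, was under the filter in both groups. It had 2 and 4 reads in the MZ1 libraries, against 5 and 7 reads in the DMSO libraries.

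**Figure D1:**
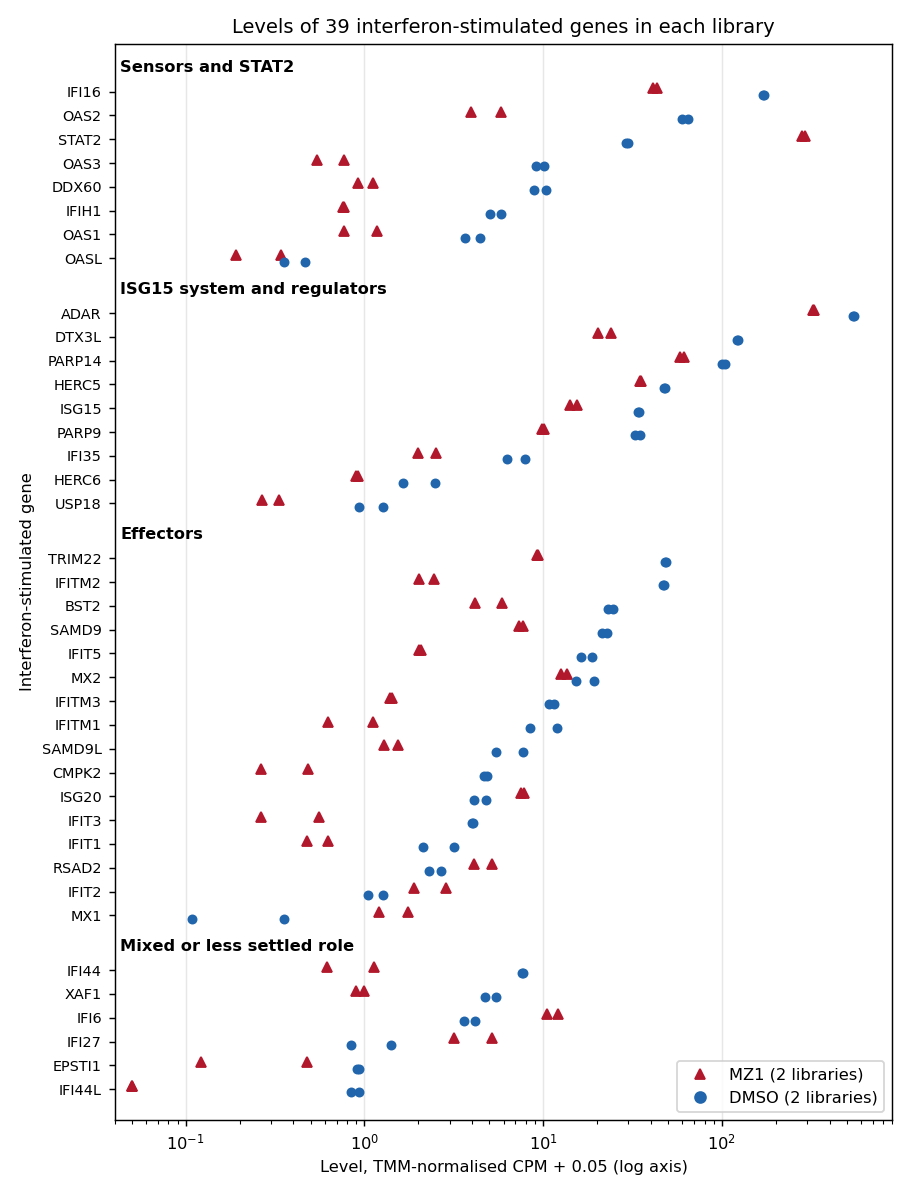
Levels of the 39 members in the 2 MZ1 libraries (triangles) and the 2 DMSO libraries (circles), in TMM-normalised CPM plus 0.05 on a log axis, by role and from the highest to the lowest DMSO level. STAT2 lies near 285 CPM with MZ1 and 29.3 CPM with DMSO, while most other members lie to the left with MZ1.

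The summed level of the 39 members was 890.5 and 878 CPM in the MZ1 libraries, against 1431 and 1427 CPM in the DMSO libraries. ADAR held the largest part of this sum, and without it the sum was 562 and 554 CPM with MZ1, against 890.0 and 879 CPM with DMSO. STAT2 was higher while the sum was lower. Divided by the exonic length of each gene, STAT2 had 46.7 CPM per kb with MZ1 and 4.79 CPM per kb with DMSO, so that among the 39 members it ranked 1 with MZ1 and 13 with DMSO. ADAR ranked 2 with MZ1 and 1 with DMSO, and ISG15 3 with MZ1 and 2 with DMSO.

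Promoter windows were searched for the ISRE, because interferon acts on such genes mainly through this element. The windows, from RefSeq (GRCh38.p14), run from 250 bases before to 50 bases after an annotated transcription start, and 32 members had at least 1. The core of the element was taken as GAAA, any 2 bases and GAAA, or on the other strand TTTC, any 2 bases and TTTC, with no mismatch. Of the 32 members 23 (71.9%) held a match, as against 4.38% of all genes with a window, and 3.57% of all windows. The 6 promoters below show members that moved apart: STAT2, IFI6 and ISG20 rose, and IFIT5, OAS3 and IFITM3 fell. OAS3 passed the count filter with DMSO only, so its direction adds no support here. Capitals mark ISRE core matches, and each is written 5′ to 3′ on the strand of its gene.
STAT2, chr12:56360058-56360357, minus strand: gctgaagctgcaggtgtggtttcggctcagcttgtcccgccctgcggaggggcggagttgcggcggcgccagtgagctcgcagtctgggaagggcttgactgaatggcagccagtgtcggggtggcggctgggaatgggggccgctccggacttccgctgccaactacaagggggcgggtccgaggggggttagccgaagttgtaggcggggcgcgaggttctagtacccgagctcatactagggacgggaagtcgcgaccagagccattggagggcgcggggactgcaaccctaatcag
IFI6, chr1:27672143-27672442, minus strand: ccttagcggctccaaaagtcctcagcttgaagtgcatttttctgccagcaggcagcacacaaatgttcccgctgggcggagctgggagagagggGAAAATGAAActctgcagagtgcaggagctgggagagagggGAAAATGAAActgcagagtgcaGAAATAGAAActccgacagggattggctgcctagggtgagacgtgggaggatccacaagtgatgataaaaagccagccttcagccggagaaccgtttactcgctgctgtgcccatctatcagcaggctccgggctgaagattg
ISG20, chr15:88638766-88639065, plus strand: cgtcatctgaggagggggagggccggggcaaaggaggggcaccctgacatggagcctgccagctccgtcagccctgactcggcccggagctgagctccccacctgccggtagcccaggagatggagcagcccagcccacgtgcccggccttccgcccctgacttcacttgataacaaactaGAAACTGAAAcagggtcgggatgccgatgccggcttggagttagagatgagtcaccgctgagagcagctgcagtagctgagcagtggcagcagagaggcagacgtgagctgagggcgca
IFIT5, chr10:89414318-89414617, plus strand: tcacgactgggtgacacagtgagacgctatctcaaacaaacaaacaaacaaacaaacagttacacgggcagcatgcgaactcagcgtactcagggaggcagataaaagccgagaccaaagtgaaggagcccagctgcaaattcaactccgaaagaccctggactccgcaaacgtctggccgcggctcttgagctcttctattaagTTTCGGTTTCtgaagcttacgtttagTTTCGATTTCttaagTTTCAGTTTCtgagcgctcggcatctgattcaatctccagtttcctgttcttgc
OAS3, chr12:112938224-112938523, plus strand: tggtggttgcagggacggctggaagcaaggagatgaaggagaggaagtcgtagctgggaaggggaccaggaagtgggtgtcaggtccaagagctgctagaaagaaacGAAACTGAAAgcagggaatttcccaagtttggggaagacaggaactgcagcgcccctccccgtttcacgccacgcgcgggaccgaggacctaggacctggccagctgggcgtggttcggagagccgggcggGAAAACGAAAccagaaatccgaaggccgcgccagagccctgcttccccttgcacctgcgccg
IFITM3, chr11:320811-321110, minus strand: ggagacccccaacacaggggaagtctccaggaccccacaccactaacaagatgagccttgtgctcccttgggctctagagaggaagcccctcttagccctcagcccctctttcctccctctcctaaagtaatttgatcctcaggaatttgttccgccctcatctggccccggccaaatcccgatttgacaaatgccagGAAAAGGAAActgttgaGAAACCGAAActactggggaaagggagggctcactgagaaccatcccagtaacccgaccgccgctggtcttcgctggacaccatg

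The core was found in promoters of members that rose and of members that fell. Of the 6 higher members with a window 5 held a match (83.3%), and of the 26 lower members 18 (69.2%). STAT2 was the higher member without one. Among the members with a window MX1 passed the count filter with MZ1 only. OAS3, IFIT1, IFIT3, CMPK2, IFITM1, IFI44, IFI44L and EPSTI1 passed it with DMSO only. Their directions add no support to this split. IFI6, which rose, and IFIT5, which fell, each carried 3 matches in 1 window. The lower members without a match were IFI16, OAS1, HERC6, ADAR, IFI35, CMPK2, SAMD9L and XAF1. The 47 matches in members lay between positions −196 and 12 counted from the start, and 46 began before it. Matches were counted in each window, so a site that lies in more than 1 window of a gene is counted more than once. Outside the members, 413 tested genes held the core in a window, of which 50.8% were lower and 38.3% higher, beside 47.3% lower and 39% higher among 10630 tested genes without it.

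A second element, GAS, which binds STAT dimers, was searched as TTC, any 3 bases and GAA, which reads the same on both strands. It was found in 9 of the 32 members (28.1%), beside 9.38% of all genes with a window and 7.66% of all windows. Of the ISRE core matches in members 8 overlapped a GAS match, again counted in each window. In IFI27 such matches began at −108 and −95 in 1 window and at −187 and −174 in the other, with the same spacing. They may therefore be the same sites counted again. The element was found in 2 of the 6 higher members (33.3%) and 7 of the 26 lower ones (26.9%). Here too, members that passed the count filter through 1 group only add no support to the split. A match is a run of letters, and binding was not measured.

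**Figure D2:**
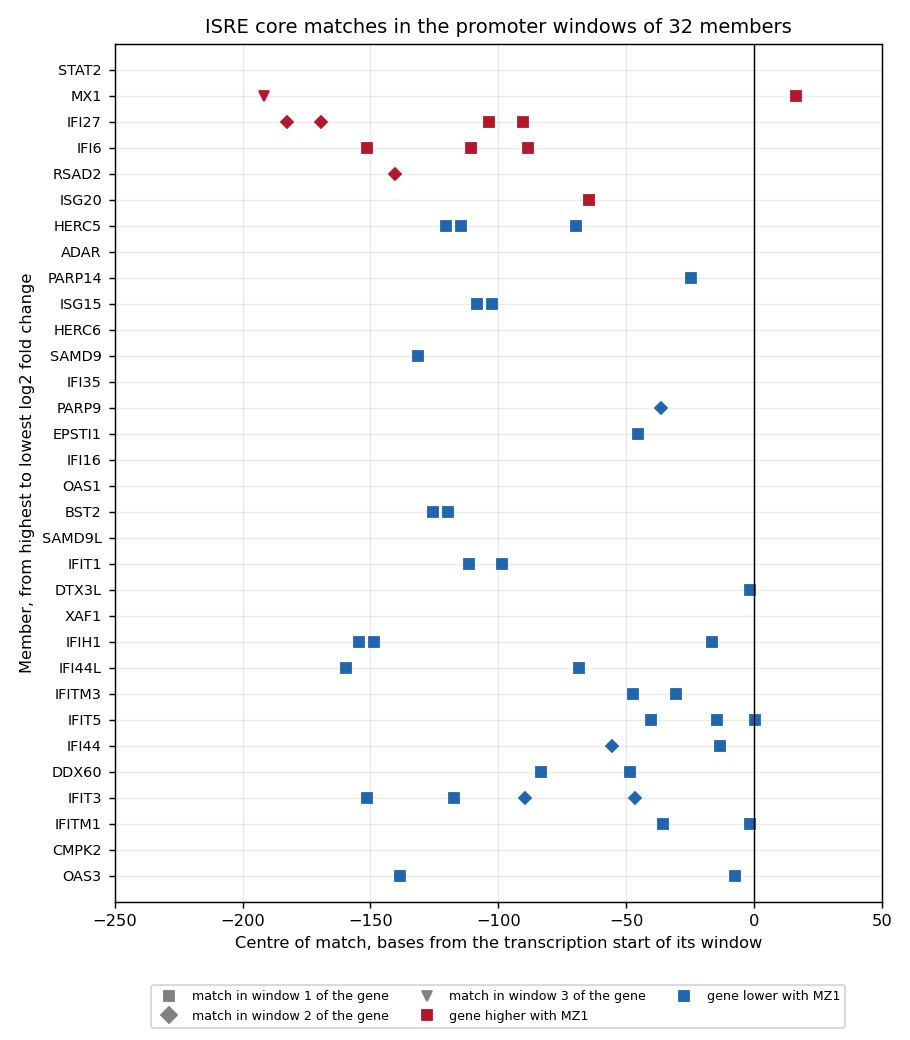
ISRE core matches (centre of each, in bases from the annotated transcription start) in the 32 members with a promoter window, from the highest to the lowest log2 fold change, with IFI44L placed at its bound. Symbol shape gives the window of a gene that has more than 1; members that rose (red) and that fell (blue) both carry matches, and 9 members carry none.

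Among the sensors and STAT2, 1 of 7 tested members rose and 6 fell, where 42.8% of all tested genes were higher and 41.3% lower. OAS3 passed the count filter with DMSO only, so its call adds no support to this count. The 6 sensors that were tested had a median log2 fold change of −3.10. STAT2, a subunit of the interferon-activated complex (chromosome 12, 56341597 to 56360155, GRCh38), had 291 and 279 CPM in the MZ1 libraries, against 28.9 and 29.6 CPM in the DMSO libraries. Its log2 fold change was 3.29 ± 0.06 (SE, n = 2 per group; edgeR adjusted p = 3.7e-25), a 9.75-fold rise. This was the largest rise among the tested members, and the libraries of each group lay close together.

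The tested sensors among the members went the other way. Of 20 tested sensors and adaptors outside the members 13 were lower and 5 higher, the sensors RIGI and ZBP1 among the higher ones. Among all tested genes 41.3% were lower and 42.8% higher. ZBP1 passed the count filter with MZ1 only and TLR3, one of the lower genes, with DMSO only. IFI16, a sensor of DNA in nucleus and cytosol (chromosome 1, 158999968 to 159055155), had 41.2 and 43.5 CPM in the MZ1 libraries, against 172 and 171 CPM in the DMSO libraries. It fell 4.05-fold (log2 fold change −2.02 ± 0.06; edgeR adjusted p = 5.47e-21) and had the highest level per kb of exon among the sensors in both groups. IFIH1, which encodes MDA5 and senses long double-stranded RNA, had 0.707 and 0.723 CPM in the MZ1 libraries, against 5.01 and 5.72 CPM in the DMSO libraries (log2 fold change −2.89 ± 0.33; edgeR adjusted p = 1.34e-08). DDX60, a helicase linked to RNA sensing, fell 9.84-fold, with 1.06 and 0.867 CPM with MZ1 and 8.80 and 10.3 CPM with DMSO. The libraries of the groups did not overlap for either gene, and 91.3% of all tested genes had no overlap.

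The OAS enzymes, which on binding double-stranded RNA make a second messenger of antiviral defence, fell together. OAS2 (chromosome 12, 112978395 to 113011723) had 3.89 and 5.78 CPM in the MZ1 libraries, against 64.9 and 59.7 CPM in the DMSO libraries, a log2 fold change of −3.69 ± 0.12 (edgeR adjusted p = 2.43e-19). OAS3 had 0.495 and 0.723 CPM in the MZ1 libraries, against 9.10 and 10.03 CPM in the DMSO libraries (−3.96 ± 0.29; edgeR adjusted p = 2.87e-12), with 7 and 10 reads in the MZ1 libraries, against 149 and 170 reads in the DMSO libraries. OAS1 had 1.13 and 0.723 CPM in the MZ1 libraries, against 3.60 and 4.37 CPM in the DMSO libraries (−2.09 ± 0.34; edgeR adjusted p = 4.29e-06). The MZ1 and DMSO libraries did not overlap for any of these 3, which lie side by side on chromosome 12. Of all tested genes 91.3% had no overlap, and OAS3 passed the count filter with DMSO only.

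All 9 members of the ISG15 system and the other regulators fell, with a median of −1.22, where 41.3% of all tested genes were lower. USP18 passed the count filter with DMSO only, so its call adds no support to this count. ISG15, a ubiquitin-like protein that is joined to other proteins (chromosome 1, 1001138 to 1014540), had 14.1 and 15.4 CPM in the MZ1 libraries, against 34.0 and 34.2 CPM in the DMSO libraries (−1.21 ± 0.10; edgeR adjusted p = 5.2e-11). HERC5, the main ISG15 ligase in human cells, fell 1.37-fold (−0.45 ± 0.07), with 35.1 and 34.8 CPM with MZ1 and 47.5 and 48.1 CPM with DMSO. HERC6, its relative and the ISG15 ligase of mice, had 12 and 12 reads in the MZ1 libraries, against 40 and 27 reads in the DMSO libraries (log2 fold change −1.22 ± 0.41). This call was lost with DESeq2 (adjusted p = 0.0818) and without DMSO replicate 1 (edgeR adjusted p = 0.132).

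USP18, which removes ISG15 and also damps signalling at IFNAR2, had 4 and 3 reads in the MZ1 libraries, against 20 and 15 reads in the DMSO libraries, a ratio of MZ1 to DMSO of 0.238 with a 95% counting interval of 0.0893 to 0.544. It was lower in edgeR's test (adjusted p = 0.00223), but not with DESeq2 (adjusted p = 0.0547) or without DMSO replicate 1 (edgeR adjusted p = 0.0636). Of its 50-base stretches 23.4% occur in other genes, among them USP41, so its count is uncertain. The enzymes that load ISG15 before these ligases act are UBA7 and UBE2L6. UBE2L6, the conjugating enzyme, had 23.3 and 27.8 CPM with MZ1 and 104 and 111 CPM with DMSO (−2.07 ± 0.07; edgeR adjusted p = 8.98e-19), and UBA7, the activating enzyme, had 47.3 and 47.1 CPM with MZ1 and 50.4 and 52.7 CPM with DMSO (−0.13 ± 0.07; edgeR adjusted p = 0.0878, and 0.00851 with library totals alone). The difference between these changes was not tested.

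ADAR, which edits adenosine to inosine in double-stranded RNA, had 328 and 323 CPM in the MZ1 libraries, against 541 and 548 CPM in the DMSO libraries, the most reads of any member. It fell 1.67-fold (−0.74 ± 0.04; edgeR adjusted p = 4.97e-15), a small change that rests on 4643 and 4474 reads in the MZ1 libraries, against 8856 and 9281 reads in the DMSO libraries. DTX3L, a ubiquitin ligase (chromosome 3, 122564238 to 122575203), had 20.3 and 24.0 CPM in the MZ1 libraries, against 123 and 121 CPM in the DMSO libraries and fell 5.52-fold (edgeR adjusted p = 1.22e-20). Its partner PARP9 starts next to it on the other strand and had 9.83 and 10.05 CPM with MZ1 and 34.7 and 32.7 CPM with DMSO (−1.76 ± 0.11; edgeR adjusted p = 1.6e-13). PARP14, an ADP-ribosyltransferase further along the same chromosome, had 61.5 and 58.5 CPM with MZ1 and 99.8 and 105 CPM with DMSO (−0.77 ± 0.06). All 3 neighbours fell. IFI35, a binding partner of the interferon-induced protein NMI, had 2.48 and 1.95 CPM with MZ1 and 6.23 and 7.85 CPM with DMSO and fell 3.17-fold.

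Among the 16 effectors 12 fell and 4 rose, with a median of −2.31, where 41.3% of all tested genes were lower and 42.8% higher. IFIT1, IFIT3, CMPK2 and IFITM1 passed the count filter with DMSO only and MX1 with MZ1 only. Their calls add no support to these counts. The 4 IFIT genes, whose products bind foreign RNA and hinder its translation, lie within 137 kb on chromosome 10, and they split. IFIT5 had 1.98 and 2.02 CPM in the MZ1 libraries, against 18.7 and 16.3 CPM in the DMSO libraries (−3.12 ± 0.19; edgeR adjusted p = 6.69e-14). IFIT3 had 0.212 and 0.506 CPM in the MZ1 libraries, against 3.97 and 4.01 CPM in the DMSO libraries (−3.45 ± 0.42), and IFIT1 0.424 and 0.578 CPM with MZ1 and 2.08 and 3.13 CPM with DMSO (−2.36 ± 0.44). IFIT2, the first of the 4 along the chromosome, had 26 and 39 reads in the MZ1 libraries, against 20 and 17 reads in the DMSO libraries. Its MZ1 libraries lay above both DMSO libraries, with a log2 fold change of 1.06 ± 0.38 (edgeR adjusted p = 0.012). The IFIT2 call was lost with DESeq2 (adjusted p = 0.0796), with no count filter (0.0628), without DMSO replicate 2 (0.0789) and without MZ1 replicate 2 (0.195, log2 fold change 0.72). Genes that overlap IFIT2 cover 10.3% of its exonic length.

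The IFITM genes, whose membrane proteins block the entry of viruses, all fell. IFITM2 (chromosome 11, 307631 to 315272) had 1.98 and 2.39 CPM in the MZ1 libraries, against 46.7 and 47.6 CPM in the DMSO libraries, a 21.6-fold fall and the largest of the effectors (−4.43 ± 0.14; edgeR adjusted p = 9.01e-20). IFITM1 had 1.06 and 0.578 CPM in the MZ1 libraries, against 11.9 and 8.38 CPM in the DMSO libraries (−3.61 ± 0.30), and IFITM3 1.34 and 1.37 CPM with MZ1 and 11.4 and 10.7 CPM with DMSO (−3.02 ± 0.23). All 3 were at or below 2.39 CPM in each MZ1 library. Of the 50-base stretches of IFITM1, IFITM2 and IFITM3, 32%, 34.3% and 35.2% occur in other genes. They occur in each other, or for IFITM3 also in AC136475.5 on the opposite strand. Part of this is overlap of the annotated genes. IFITM1 and IFITM2 overlap on the same strand, over 32.5% and 22.7% of their exonic lengths. AC136475.5 covers 21.3% of that of IFITM3. Overlap and copied sequence were not separated, so how the reads of these genes divide is uncertain.

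MX1 and MX2, GTPases that trap the particles of different viruses, lie next to each other on chromosome 21 and moved apart. MX1 had 24 and 16 reads in the MZ1 libraries, against 5 and 1 reads in the DMSO libraries, a ratio of MZ1 to DMSO of 7.94 with a 95% counting interval of 3.35 to 22.9 (edgeR adjusted p = 9.19e-05). Both MZ1 libraries were above both DMSO libraries, and MX1 had the lowest level per length of all 39 members with DMSO. MX2 had 13.5 and 12.5 CPM in the MZ1 libraries, against 19.1 and 15.2 CPM in the DMSO libraries. Its log2 fold change of −0.40 ± 0.13 (edgeR adjusted p = 0.00822) was not called with upper-quartile scaling (−0.13, adjusted p = 0.379), with DESeq2 (adjusted p = 0.0889) or without DMSO replicate 1 (−0.27, edgeR adjusted p = 0.126).

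RSAD2 and CMPK2 start close together on opposite strands of chromosome 2 and also moved apart. RSAD2, or viperin, makes a nucleotide that stops viral RNA synthesis, and had 4.03 and 5.13 CPM in the MZ1 libraries, against 2.63 and 2.24 CPM in the DMSO libraries (0.91 ± 0.27; edgeR adjusted p = 0.00293). CMPK2, a mitochondrial nucleotide kinase, had 3 and 6 reads in the MZ1 libraries, against 79 and 78 reads in the DMSO libraries, a ratio of MZ1 to DMSO of 0.0683 with a 95% counting interval of 0.0307 to 0.133 (edgeR adjusted p = 3.57e-09). Per kb of exon, CMPK2 had 0.0751 CPM per kb with MZ1 and 1.10 CPM per kb with DMSO, and RSAD2 0.948 CPM per kb with MZ1 and 0.504 CPM per kb with DMSO, so that RSAD2 had the higher level of the pair with MZ1 and CMPK2 with DMSO.

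The other effectors fell, except ISG20. BST2 (tetherin), which holds budding viruses at the cell surface, had 5.87 and 4.12 CPM with MZ1 and 23.1 and 24.6 CPM with DMSO (−2.25 ± 0.15; edgeR adjusted p = 5.79e-13). TRIM22, an antiviral ubiquitin ligase, had 9.34 and 9.18 CPM in the MZ1 libraries, against 48.9 and 48.3 CPM in the DMSO libraries, a 5.24-fold fall (edgeR adjusted p = 3.82e-17), and OR56B1 on the same strand covers 10.7% of its exonic length. SAMD9 and SAMD9L, neighbours on chromosome 7 that restrain growth and poxviruses, had log2 fold changes of −1.55 ± 0.13 and −2.26 ± 0.28, with 7.71 and 7.30 CPM with MZ1 and 22.7 and 21.3 CPM with DMSO for SAMD9 and 1.49 and 1.23 CPM with MZ1 and 7.64 and 5.43 CPM with DMSO for SAMD9L. ISG20, an RNA exonuclease, rose to 7.498 and 7.73 CPM in the MZ1 libraries, against 4.03 and 4.72 CPM in the DMSO libraries (0.80 ± 0.20; edgeR adjusted p = 0.000675).

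Among the 6 members of mixed or less settled role, IFI6 and IFI27 rose and 4 fell, where 42.8% of all tested genes were higher and 41.3% lower. IFI44, IFI44L and EPSTI1 passed the count filter with DMSO only, so their calls add no support to this count. IFI6, a small membrane protein that protects against cell death, had 10.5 and 12.1 CPM in the MZ1 libraries, against 4.09 and 3.54 CPM in the DMSO libraries (1.56 ± 0.19; edgeR adjusted p = 2.88e-08). IFI27, of the same family, had 5.09 and 3.11 CPM in the MZ1 libraries, against 0.794 and 1.36 CPM in the DMSO libraries (1.92 ± 0.35; edgeR adjusted p = 1.93e-05), with its MZ1 libraries unlike each other but both above DMSO. XAF1, which opposes the death inhibitor XIAP, had 0.849 and 0.94 CPM with MZ1 and 4.70 and 5.43 CPM with DMSO (−2.49 ± 0.32). PRAL, on the opposite strand, covers 38.3% of the exonic length of XAF1, so this value is uncertain unless strand was used in counting.

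IFI44 and IFI44L are neighbours on chromosome 1 and both fell. IFI44 had 0.566 and 1.08 CPM in the MZ1 libraries, against 7.64 and 7.61 CPM in the DMSO libraries (−3.20 ± 0.30; edgeR adjusted p = 3.05e-10). IFI44L had 0 and 0 reads in the MZ1 libraries, against 13 and 15 reads in the DMSO libraries, at least 7.83-fold lower when the MZ1 level is set to 3 reads over the group. EPSTI1 had 6 and 1 reads in the MZ1 libraries, against 14 and 15 reads in the DMSO libraries, a ratio of MZ1 to DMSO of 0.288 with a 95% counting interval of 0.106 to 0.671 (edgeR adjusted p = 0.012). The EPSTI1 call was lost with DESeq2 (adjusted p = 0.131), with no count filter (0.0798) and without either DMSO replicate (0.0633 and 0.0772) or MZ1 replicate 2 (0.241), where the log2 fold change was −1.02.

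**Figure D3:**
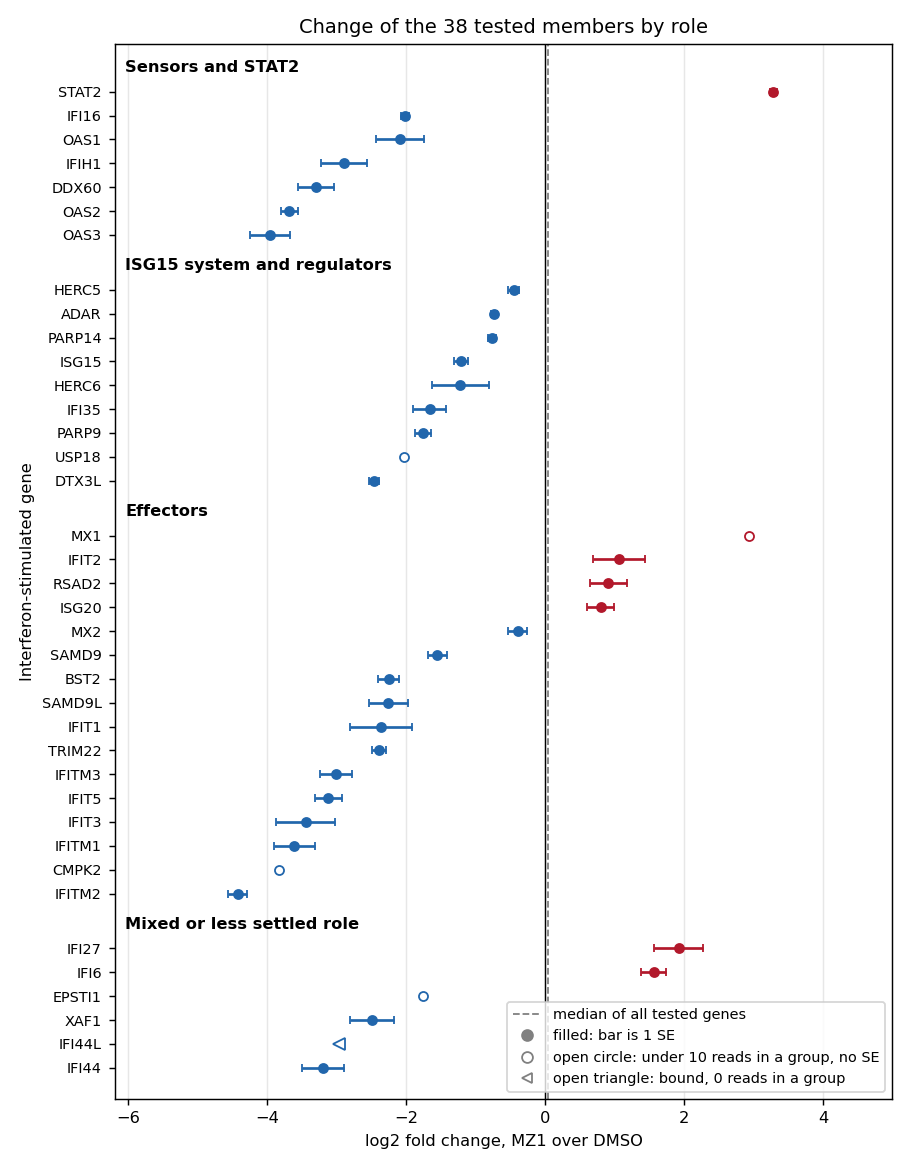
Log2 fold changes (MZ1 over DMSO) of the 38 tested members by role, with bars of 1 SE; open circles have under 10 reads in a group and no SE, and the open triangle for IFI44L marks its bound. The dashed line is the median of all tested genes (0.05), and 31 of the 38 members lie to its left.

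Neighbouring members fell together in some clusters and split in others. Of 9 families or loci drawn, every tested gene fell in the OAS, IFITM, PARP9, SAMD9, IFI44 and HERC groups. The IFIT, MX and RSAD2 groups each held a gene that rose beside one that fell. Among these genes MX1 passed the count filter with MZ1 only, and OAS3, IFIT1, IFIT3, CMPK2, IFITM1, IFI44 and IFI44L with DMSO only. Their directions add no support to this pattern, and the IFIT2, MX2 and HERC6 calls were lost under some settings.

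**Figure D4:**
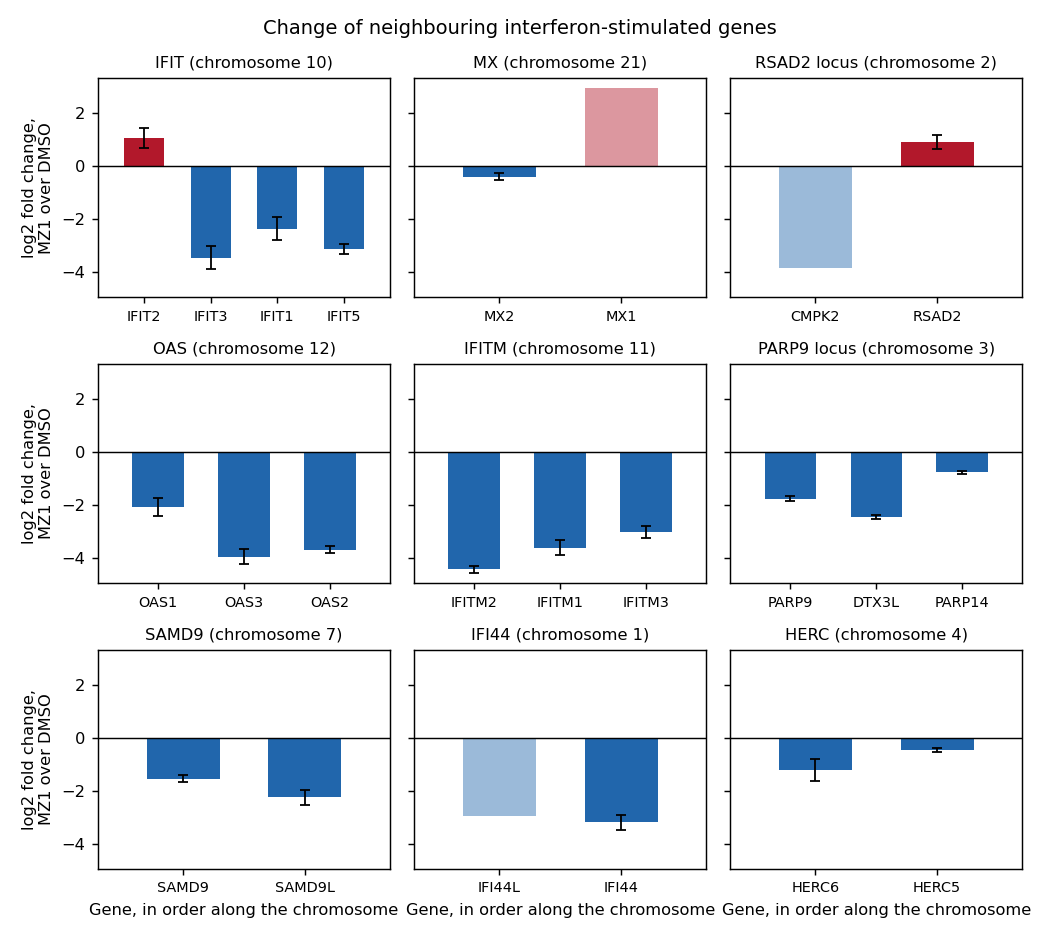
Log2 fold changes (MZ1 over DMSO) of tested members that lie near each other, in chromosomal order, with error bars of 1 SE; pale bars have under 10 reads in a group and no SE, and the bar of IFI44L is drawn at its bound. IFIT2, MX1 and RSAD2 point up (1.06, 2.93 and 0.91) next to genes that point down. MX1 passed the count filter with MZ1 only and CMPK2 with DMSO only, and the calls of IFIT2 and MX2 were lost under some settings.

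Outside the members, 72 genes of the interferon pathway were examined, of which 60 had a row and 48 were tested. Of these 21 were higher and 22 lower (43.8% and 45.8%), close to the shares among all tested genes given above, and the median was −0.12. Shares differed by role without a test of the difference. Of 9 tested STATs and IRFs 8 were higher and 0 lower, while 1 was not called. Not all of these 8 calls held under the other settings, as given for IRF9 below. Of 20 tested sensors and adaptors 5 were higher and 13 lower. Of all tested genes 42.8% were higher and 41.3% lower. IRF5, IL10RB and ZBP1 passed the count filter with MZ1 only, and TLR3 and IFNW1 with DMSO only. Their calls add no support to the counts of pathway genes here and below.

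Interferon genes themselves were at the limit of detection. Of 21 ligand genes 11 had a row, and their reads summed to 18 and 25 in the MZ1 libraries and 35 and 37 in the DMSO libraries. IFNB1, the interferon-beta gene, had 0 and 1 reads in the MZ1 libraries, against 3 and 6 reads in the DMSO libraries. IFNA21 had 0 and 2 reads in the MZ1 libraries, against 11 and 10 reads in the DMSO libraries, and IFNK 4 and 6 reads in the MZ1 libraries, against 0 and 0 reads in the DMSO libraries. IFNW1 was the one ligand that passed the count filter, with 4 and 2 reads in the MZ1 libraries, against 13 and 13 reads in the DMSO libraries, a ratio of MZ1 to DMSO of 0.275 with a 95% counting interval of 0.0925 to 0.683 (edgeR adjusted p = 0.00931). That call was lost with DESeq2 (adjusted p = 0.128), without either DMSO replicate (0.0833 and 0.0755) and without MZ1 replicate 2 (0.142). The other ligand genes with a row (IFNA4, IFNA5, IFNA7, IFNA14, IFNA16, IFNL1 and IFNL2) had at most 5 reads in any library, and the interferon-alpha genes are near copies of each other.

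The Janus kinases rose and the receptor chains split. JAK1, the kinase shared by all 3 interferon types, had 516 and 512 CPM in the MZ1 libraries, against 137 and 135 CPM in the DMSO libraries (1.92 ± 0.04; edgeR adjusted p = 7.85e-23). TYK2 had 316 and 299 CPM with MZ1 and 138 and 147 CPM with DMSO (1.11 ± 0.05), and JAK2, which serves the interferon-gamma receptor, 30.9 and 34.4 CPM with MZ1 and 12.2 and 11.8 CPM with DMSO (1.45 ± 0.11). IFNAR1 fell, with 23.9 and 28.8 CPM with MZ1 and 42.5 and 43.1 CPM with DMSO (−0.70 ± 0.09; edgeR adjusted p = 1.16e-07), whereas its partner IFNAR2 had 2.76 and 1.59 CPM with MZ1 and 2.14 and 2.01 CPM with DMSO (0.07 ± 0.34; edgeR adjusted p = 0.845), with 83.2% of its exons lying under other genes. The chains of the interferon-gamma receptor moved apart, IFNGR1 with 57.7 and 59.8 CPM with MZ1 and 16.5 and 17.6 CPM with DMSO (1.79 ± 0.08) and IFNGR2 with 2.12 and 2.24 CPM with MZ1 and 10.1 and 9.26 CPM with DMSO (−2.15 ± 0.22). So did those of the interferon-lambda receptor, IFNLR1 with 11.8 and 12.0 CPM with MZ1 and 40.3 and 41.9 CPM with DMSO (−1.79 ± 0.10) and IL10RB with 3.82 and 4.70 CPM with MZ1 and 1.16 and 0.236 CPM with DMSO (2.61 ± 0.41), with 38.1% of its exons under another gene.

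IRF9, which binds DNA in the complex with STAT2, had 65 and 51 reads in the MZ1 libraries, against 26 and 51 reads in the DMSO libraries (log2 fold change 0.84 ± 0.30; edgeR adjusted p = 0.0118). It was not called with DESeq2 (adjusted p = 0.0676), with no count filter (0.123), without DMSO replicate 1 (0.234, log2 fold change 0.41) or without MZ1 replicate 1 (0.0754), and 48.4% of its exons lie under another gene. STAT3, which serves interleukin-6 and other cytokines, had 426 and 403 CPM with MZ1 and 95.0 and 88.7 CPM with DMSO (2.18 ± 0.05; edgeR adjusted p = 9.35e-23).

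The interferon regulatory factors outside that complex were mostly higher. IRF7, which drives interferon-alpha genes, had 86.9 and 83.8 CPM in the MZ1 libraries, against 12.5 and 14.5 CPM in the DMSO libraries (2.66 ± 0.08; edgeR adjusted p = 5.83e-20). IRF5 had 4.95 and 4.48 CPM with MZ1 and 0.305 and 0.295 CPM with DMSO (3.94 ± 0.40), IRF8 52.7 and 42.5 CPM with MZ1 and 19.5 and 17.1 CPM with DMSO (1.38 ± 0.10), IRF2 76.7 and 80.8 CPM with MZ1 and 40.4 and 38.6 CPM with DMSO (0.99 ± 0.07) and IRF3 74.5 and 81.9 CPM with MZ1 and 57.9 and 60.9 CPM with DMSO (0.40 ± 0.06). IRF1 had 46.0 and 42.6 CPM with MZ1 and 48.0 and 48.9 CPM with DMSO and was not called (−0.13 ± 0.07; edgeR adjusted p = 0.0981), but it was lower with library totals alone (−0.21; adjusted p = 0.0108). Genes on the opposite strand cover 19.3% of the exons of IRF3 and 22.0% of those of IRF1.

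Among the other sensors and adaptors the falls with the smallest adjusted p were in IRAK1, a kinase below Toll-like receptors, UNC93B1, which carries such receptors to endosomes, and TRAF3, an adaptor. UNC93B1 had 5.38 and 6.65 CPM in the MZ1 libraries, against 62.9 and 69.4 CPM in the DMSO libraries (−3.46 ± 0.11; edgeR adjusted p = 9.19e-20), IRAK1 24.1 and 23.6 CPM with MZ1 and 294 and 309 CPM with DMSO (−3.66 ± 0.06) and TRAF3 22.9 and 19.7 CPM with MZ1 and 88.5 and 87.6 CPM with DMSO (−2.04 ± 0.08). TLR3, which senses double-stranded RNA in endosomes, had 0 and 0 reads in the MZ1 libraries, against 55 and 54 reads in the DMSO libraries, at least 30.5-fold lower against 3 reads over the MZ1 group. The rises with the smallest adjusted p were in IRAK4 (1.09 ± 0.07), ZBP1 and TRAF6 (0.86 ± 0.09). ZBP1, a sensor of Z-form nucleic acid, had 71 and 65 reads in the MZ1 libraries, against 0 and 0 reads in the DMSO libraries, at least 54.0-fold higher against 3 reads over the DMSO group.

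Of 9 tested genes on the list of negative regulators and ISG15 conjugation enzymes 3 were higher and 5 lower. Among all tested genes 42.8% were higher and 41.3% lower. The conjugation enzymes UBE2L6, one of the 5, and UBA7, which was not called, are described above, and the negative regulators moved in both directions. SOCS1, which blocks Janus kinases, had 65.7 and 56.8 CPM in the MZ1 libraries, against 5.19 and 5.25 CPM in the DMSO libraries (3.55 ± 0.11; edgeR adjusted p = 1.17e-19). PIAS1, which restrains STAT activity at DNA, had 207 and 206 CPM with MZ1 and 59.7 and 58.4 CPM with DMSO (1.81 ± 0.05), with 32.3% of its exons under opposite-strand genes, and the phosphatase gene PTPN1 186 and 181 CPM with MZ1 and 103 and 104 CPM with DMSO (0.82 ± 0.05). PTPN6, the phosphatase SHP-1, had 5.38 and 6.87 CPM in the MZ1 libraries, against 95.5 and 105 CPM in the DMSO libraries (−4.03 ± 0.10; edgeR adjusted p = 5.29e-22), and PTPN2, a phosphatase that acts on JAK1, 39.8 and 41.2 CPM with MZ1 and 61.1 and 70.3 CPM with DMSO (−0.70 ± 0.07).

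**Figure D5:**
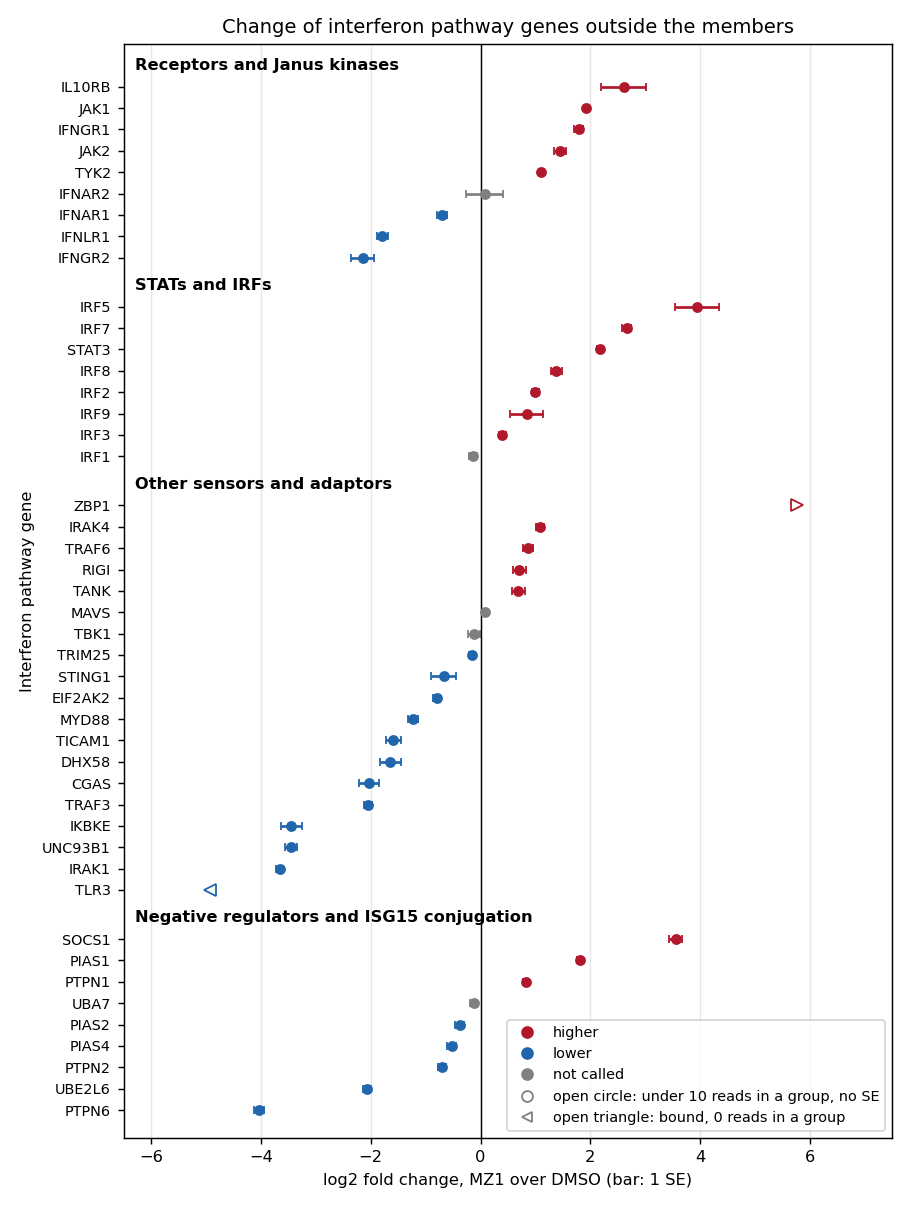
Log2 fold changes (MZ1 over DMSO) of tested interferon pathway genes outside the members, by role and without the ligands and the genes not reported here, with bars of 1 SE; open triangles mark bounds for ZBP1 and TLR3, which had 0 reads in a group. Receptors, sensors and negative regulators fall on both sides of 0, while the STATs and IRFs drawn lie to the right, except IRF1.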

How the data were processed

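RNA of 697 cells treated with MZ1 or DMSO was measured in 4 libraries, grouped by their titles. The authors deposited unnormalised counts of reads for each Ensembl gene, as whole numbers. Per the labels' protocols, TRIzol was used for extraction and an Illumina TruSeq RNA kit for the libraries. Alignment software HISAT2 2.2.0 and build hg38 come from the labels, per the submitters' processing notes. For the counting step, program, annotation and strand setting were not given in the sources used here; overlapping genes, antisense genes and near copies may therefore share or lose reads.

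GENCODE 29 (GRCh38, that is hg38) held all 28814 gene IDs and gave positions, exonic lengths and overlaps; symbols were assigned to 28597 of them. Genes were kept with filterByExpr (16862), scaled with TMM and tested in R 4.3.3 with edgeR 4.0.16 (glmQLFit, glmQLFTest), treatment being the only term. Each SE is the unshrunk coefficient divided by the root of F; SEs are not given where a group had under 10 reads over its libraries. There the ratio of summed reads is given with an exact 95% interval, or, with 0 reads in a group, a bound against 3 reads over that group (0.107 CPM for MZ1, 0.09 CPM for DMSO). Intervals and bounds cover counting error only. DESeq2 1.42.0 and limma 3.58.1 served as alternatives. The fit was also run on simulated counts in which few genes changed. In the real libraries 84.2% of tested genes were called, so that run does not check the scaling or the calls under such wide change. With 2 libraries a group, the smallest two-sided p that an exact permutation test allows is 0.333; calls therefore depend on edgeR's spread shared across genes. Replicates differed by more than sampling noise (chi-square per degree of freedom 2.17 with MZ1 and 2.44 with DMSO). Named were all members (values per library for the 6 smallest adjusted p in each direction and for families or neighbours), all genes of pathway lists of 9 or fewer, of longer lists the 3 smallest adjusted p in each direction, and any ligand with reads; other genes named were chosen after their values were seen. The members, their roles and the lists were chosen with earlier results of these data known. Some pathway genes are in the counts but are not reported here by name.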

Additional observations from a re-analysis of the deposited data

How the results depend on the processing

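The counts of 7 higher and 31 lower members ranged from 6 to 7 and from 27 to 31 over 12 alternatives: library totals, upper-quartile and RLE scaling, no and a stricter count filter, DESeq2, limma-voom, the replicate block and each library left out. Without 1 library each, 6 to 7 members were higher and 27 to 31 lower. No member reversed, and 436 values of members kept their direction and side of the threshold while 16 lost their call, in HERC6, USP18, IFIT2, MX2 and EPSTI1. With the OAS family counted among the effectors, 3 in place of 6 members of the sensor group were lower, and 15 in place of 12 effectors. Pathway counts of 21 higher and 22 lower ranged from 19 to 23 and from 19 to 25. Upper-quartile scaling raised the median of all log2 fold changes by 0.27 and turned IRF1 (0.14), TBK1 (0.15), UBA7 (0.14) and TRIM25 (0.11) to positive values. Of these only TRIM25 was called, as higher (edgeR adjusted p = 0.0224). With TMM scaling TRIM25 was called lower (−0.16; edgeR adjusted p = 0.00218), so its direction depended on the scaling. IFNAR2, which was not called, turned to −0.0038 with library totals, −0.0039 with no filter, and with 1 library left out it ran from −0.37 (without MZ1 replicate 1; −0.01 without DMSO replicate 2) to 0.41 (without MZ1 replicate 2). The replicate numbers pair no samples by the labels, and the deviations of same-numbered libraries correlated at 0.011 across genes. With the replicate block 7 members were higher and 31 lower, and no gene named here lost its call. Genes with few reads are limited by depth, and their folds are imprecise. The stricter filter left 3 members untested, and 1 fell under the filter without DMSO replicate 2. Where 1 library of a group remained, it was assumed to vary like the other group.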
